A study of Mus musculus with 2 samples.

Results

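mmu-miR-532-5p and mmu-miR-501-3p are microRNAs (miRNAs) whose genes lie close together on the mouse X chromosome. They were 2 of the 384 assays in the authors' deposited table. They were chosen on their measured ratios, which were the lowest of the miRNA assays for miR-532-5p and a high one, though not the highest, for miR-501-3p. Their ratios are therefore given as a description, with no test. The material was RNA captured from RAW264.7 cells, a mouse macrophage line that derives from a tumour induced by Abelson leukaemia virus. For 24 hours the cells carried either a control probe or a probe for the mRNA of Stat3, a transcription factor of cytokine signalling. Streptavidin beads then recovered the hybridised RNA, and the miRNAs in it were read by SYBR green real-time PCR on an Exiqon plate of 384 wells. Each probe is represented by 1 pull-down on 1 plate, so a difference between probes cannot be told apart from one between plates or between pull-downs. The question of the design is which miRNAs come down with Stat3 mRNA.

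A miRNA guides Argonaute proteins to mRNAs that pair with its seed, bases 2 to 8 from its 5′ end, and usually lowers the output of those mRNAs. Both arms of a hairpin precursor can give a mature miRNA, named 5p and 3p. Hairpins close together on one strand are often cut from one long transcript, and their products can still reach different levels, since each is processed and turned over separately. miR-501-3p is known from neurons, where it acts on a glutamate receptor subunit.

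RefSeq's sequences for build GRCm38.p6 hold 5 hairpins of this cluster on the minus strand of chromosome X, in the order of transcription Mir532, Mir188, Mir362, Mir501 and Mir500. All 5 lie within the span of Clcn5, the gene of a chloride and proton exchanger, which is on the same strand, over 10815 bases. Whether they lie in its introns or exons was not determined here. Mir532 is at chrX:7248402-7248497 and Mir501 at chrX:7241243-7241351. Their hairpins are 7050 bases apart, with Mir188 and Mir362 between them. The nearest hairpin to Mir532 is Mir188, at 345 bases, and the nearest to Mir501 is Mir362, at 630 bases.

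Mature sequences of the cluster are shown because products that share a seed may share targets. Of the 9 found, miR-188-3p is not shown. Of the 2 miRNAs described, the RefSeq table matched miR-501-3p alone, at chrX:7241270-7241291. It held no entry named miR-532-5p, so the seed of miR-532-5p and any assays sharing it were not examined. Sequences run 5′ to 3′ and the seed is in capitals.
miR-501-3p: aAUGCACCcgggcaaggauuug
miR-500-3p: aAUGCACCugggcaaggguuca
miR-362-3p: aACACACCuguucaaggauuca
miR-501-5p: aAUCCUUUgucccugggugaaa
miR-362-5p: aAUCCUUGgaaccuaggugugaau
miR-500-5p: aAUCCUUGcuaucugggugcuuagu
miR-188-5p: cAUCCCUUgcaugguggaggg
miR-532-3p: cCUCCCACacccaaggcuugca

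miR-501-3p and miR-500-3p had the same seed, and no other of the 1738 mature sequences in the table had it. Over their 22 bases they were identical at 18 and differed at 4, by C9U, A18G, U21C and G22A, counted from the 5′ end with the base of miR-501-3p first. miR-362-3p was identical to miR-501-3p at 15 of 22 positions and had another seed. miR-362-5p and miR-500-5p also shared a seed. The hairpin of Mir501 is shown next, with miR-501-3p in capitals, to place it on the 3′ side of the stem, at bases 61 to 82 of 109. The 5p arm takes up bases 24 to 45.
Mir501: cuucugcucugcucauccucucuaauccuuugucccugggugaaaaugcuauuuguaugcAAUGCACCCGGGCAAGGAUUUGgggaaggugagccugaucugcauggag

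The measured value is the threshold cycle (Ct), the PCR cycle at which the signal of a well passes a fixed threshold. A lower Ct means more template, by a factor of 2 per cycle if amplification is complete. An assay is called measured below 35 cycles, the limit recovered from the deposited ratios. On this rule 114 miRNA assays were measured with the control probe, 125 with the Stat3 probe and 100 with both. The plate names no miRNA for its wells. Each name was tied to the well whose Ct values give back its deposited ratio, which is 2 to the power of 0.7 plus the control Ct minus the Stat3 Ct. For miR-532-5p the authors' deposited table lists 0.146, and the nearest ratio of any other well was 0.288. For miR-501-3p the authors' deposited table lists 24.711, and the nearest ratio of any other well was 26.6. Each name therefore fitted 1 well alone, miR-532-5p row O, column 9, and miR-501-3p row D, column 24, the last column of the plate. Neither well carried an instrument warning on either plate.

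The Ct of miR-532-5p was 25.98 for the control pull-down and 29.46 for the Stat3 pull-down. It was the highest miRNA signal of the control plate, rank 1 of 114 by Ct, and rank 39 of 125 on the Stat3 plate. The rise of 3.48 cycles gave a ratio of 0.146 on the deposited scale, that is 6.87-fold lower with the Stat3 probe, or 11.2-fold lower from the raw Ct with no offset. miR-501-3p went the other way. Its Ct was 34.97 for the control pull-down and 31.04 for the Stat3 pull-down, rank 112 of 114 and rank 59 of 125. The fall of 3.93 cycles gave a ratio of 24.7, or 15.2-fold from the raw Ct.

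Within each plate the distance between the assays depends on no scaling. With the control probe miR-501-3p crossed the threshold 8.995 cycles after miR-532-5p, and with the Stat3 probe 1.588 cycles after it. miR-532-5p thus kept the lower Ct on both plates, and the gap narrowed by 7.41 cycles. Assays differ in efficiency, so neither gap measures how much more of one miRNA there was. The only assay repeated on the plates was the UniSp3 calibrator, a fixed template in 3 wells, whose Ct differed between plates by -0.89 ± 0.97 cycles (control minus Stat3, SD, n = 3 wells) over a range of 1.93 cycles. The well in row B differed by -1.91 cycles and those in rows C and E by 0.02 and -0.76. The SD thus includes any difference between alternate plate rows. Since the miRNAs were chosen on these ratios, the calibrator is given for scale and not as a test of their change. The calibrator lies at Ct values of 21.18 to 23.67 and covers the well and the PCR, not the pull-down, and no assay was repeated near 35 cycles, where miR-501-3p lies on the control plate.

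**Figure D1:**
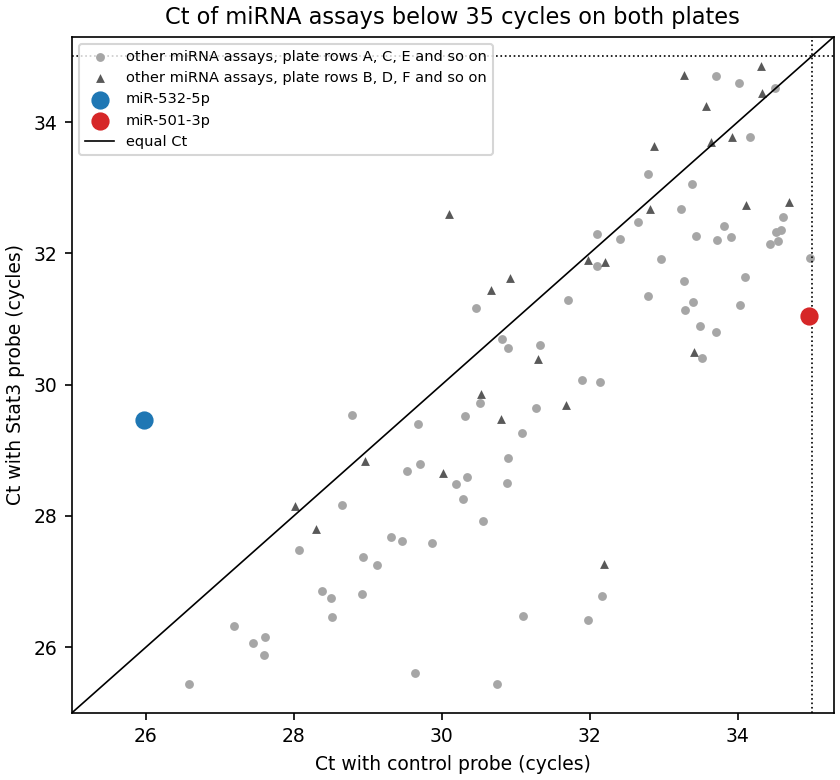
Ct with the control probe (x axis, cycles) against Ct with the Stat3 probe (y axis, cycles) for the 100 miRNA assays below 35 cycles on both plates, 1 point each, with circles and triangles for alternate plate rows, dotted lines at 35 and a line of equal Ct. miR-532-5p lies alone above the line at the left edge (25.98, 29.46) and miR-501-3p below it at the right edge (34.97, 31.04).

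Among the 100 miRNA assays measured on both plates, the level with the Stat3 probe was higher by 2-fold or more in 73.0% and lower by 2-fold or more in 2.00%, on the deposited scale. These shares move with the scale. With no offset 56 assays were higher and 3 lower by as much, against the median of all 100 these were 16 and 30, and against the medians of alternate plate rows 18 and 22. miR-532-5p had the lowest ratio of the 100 on each of these 4 scales. Only the medians of alternate rows could have changed that rank, since the other scales add the same constant to every log2 ratio. miR-449c was the only other of the 100 lower by at least 2-fold on the deposited scale. Its Ct rose from 30.10 to 32.59, for a ratio of 0.288. With no offset miR-582-5p, at 33.28 and 34.72, was a further one. The 14 assays measured with the control probe alone are not among the 100, so these low shares leave them out. Of the 14, miR-124, at 32.76 and 35.35, had a ratio of at most 0.344 with its Stat3 Ct set to 35. miR-501-3p had the 7th highest ratio of the 100. Those above it were miR-25, miR-374, miR-15b, miR-423-3p, miR-99b and miR-125a-5p, from 77.2-fold down to 26.6-fold. Another 4 assays, seen below 35 cycles with the Stat3 probe alone, had bounds above it, miR-151-3p, miR-184, miR-181a and miR-504. Against the median of all 100, at 4.22-fold, the log2 ratio of miR-532-5p was -4.86 and that of miR-501-3p 2.55.

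miR-532-5p was chosen for its ratio, the lowest of the 100, so each of the others has a higher one. Those with a control Ct like its own are given to show how far they differed. The 4 nearest were miR-20a of the miR-17 cluster, miR-21, miR-16 and miR-24, with control Ct values of 26.59 to 27.60. With the Stat3 probe they had Ct values of 25.44, 26.33, 26.07 and 25.88, each lower than with the control probe, and ratios of 3.60, 2.96, 4.22 and 5.36. Of the 16 other miRNA assays with a control Ct below 29, 13 were higher by 2-fold or more and 0 lower by as much, and their ratios ran from 0.964 (let-7f) to 7.03 (let-7b). Read from the Stat3 plate, the nearest were miR-191 at 29.48, miR-15a at 29.40, miR-17 at 29.52 and let-7f at 29.54. Their control Ct values were 30.80, 29.68, 30.32 and 28.79. The 9 other assays measured on both plates within 0.5 cycles of miR-532-5p on the Stat3 plate had control Ct values of 28.79 to 31.68, with a median of 30.53, against 25.98 for miR-532-5p. Its control value lies outside that range, below its lower end, which follows in part from the choice of the lowest ratio. Over both Ct values together, the nearest assays were miR-103, let-7f, the miR-146b assay named for rat, and miR-142-3p, at distances of 2.42, 2.81, 2.85 and 2.88 cycles.

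miR-501-3p stood closer to other assays than miR-532-5p did. Among assays below 35 on both plates, the nearest over both Ct values were miR-328 at 0.887 cycles, miR-140 at 0.958, miR-339-5p at 1.05 and miR-185 at 1.22, all of them higher with the Stat3 probe, at 13.5, 11.5, 8.94 and 7.95-fold. miR-181a, just past the limit on the control plate (35.13 and 30.53), was nearer still, at 0.541 cycles. By control Ct the nearest of those below 35 on both plates were miR-328 at 34.99, the rat-named miR-338 assay at 34.69, miR-421 at 34.61 and miR-30a at 34.59. Their Stat3 Ct values were 31.93, 32.79, 32.56 and 32.36, so miR-501-3p at 31.04 was the lowest of the 5. miR-205, miR-297a and miR-200a were nearer than the last 3 of these in control Ct, at 0.0036, 0.012 and 0.027 cycles, and were not below 35 with the Stat3 probe. Measured on both plates and near 35 cycles on the first, an assay must have a ratio near or above the offset of 1.625, so the high ratios of these neighbours follow in part from the rule. Counted without it, 24 other miRNA assays had a control Ct of 34 to 35, and 9 of them were not below 35 with the Stat3 probe. The ratios of the 24, with such wells set to 35, ran from 0.92 to 13.5 with a median of 1.60. That of miR-501-3p lay above all of them, which follows in part from its choice for a high ratio. miR-181a, just past this band, had a bound of at least 36.1-fold. By Stat3 Ct the nearest were miR-652 at 31.14, miR-451 at 31.17, miR-7a at 30.89 and miR-140 at 31.21, with control Ct values of 33.28, 30.47, 33.50 and 34.03. The value of miR-451 rests on taking the other well of its ratio for the UniSp6 spike-in. If the pair were exchanged, miR-532-5p would be second and not first on the control plate.

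**Figure D2:**
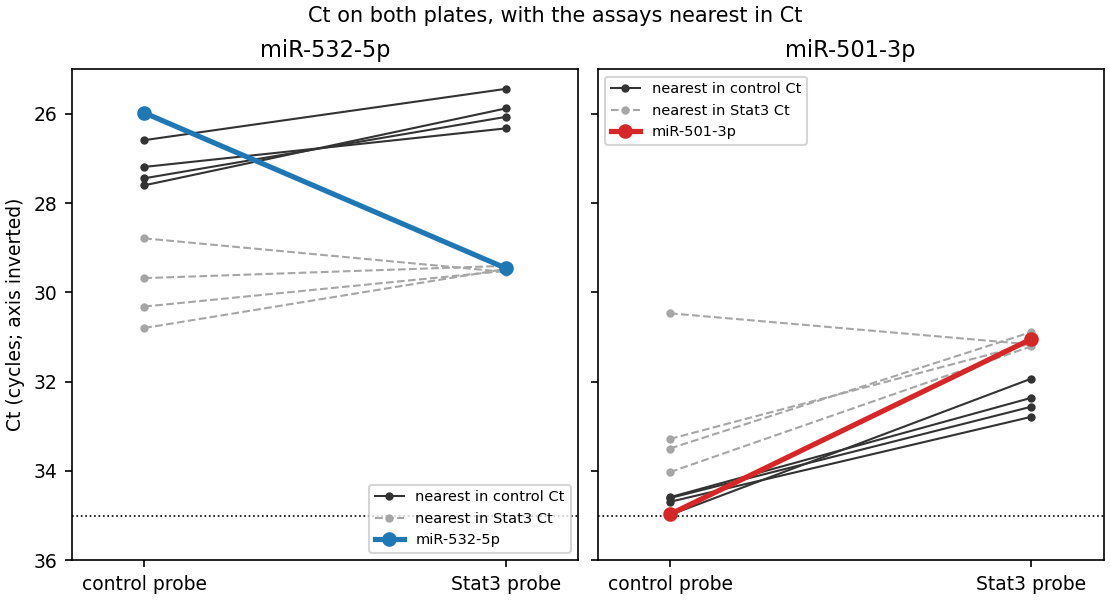
Ct (y axis, cycles, inverted so that more signal is up) on the control plate and the Stat3 plate, joined by lines, for miR-532-5p (left) and miR-501-3p (right), with, of those below 35 on both plates, the 4 assays nearest to each in control Ct (solid) and the 4 nearest in Stat3 Ct (dashed), and a dotted line at 35. The line of miR-532-5p falls from 25.98 to 29.46 and crosses those of its 4 neighbours in control Ct, which rise, and the line of miR-501-3p rises from 34.97 to 31.04.

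The control value of miR-501-3p lay 0.029 cycles inside the limit of 35. On the control plate miR-205 at 34.97 and miR-200a at 34.94 were just inside too, as were miR-297a at 34.98 and miR-328 at 34.99, and miR-183 at 35.10 and miR-181a at 35.13 were just outside. Of these 6, miR-205, miR-297a and miR-200a were not below 35 with the Stat3 probe, and miR-183 and miR-181a had Stat3 Ct values of 33.14 and 30.53. A well past 35 on the control plate could be named here only if it was below 35 with the Stat3 probe. Unnamed wells with control Ct values of 35.08, 35.10, 35.13 and 35.18 were not below 35 with the Stat3 probe. A control Ct just past the limit would have turned the ratio of miR-501-3p into a bound of at least 25.2-fold. With the limit at 33 cycles the ratio became at least 6.30-fold, and at 32 cycles at least 3.15-fold. Those of miR-532-5p were the same at each limit, since both its Ct values lie below 30.

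Ratios differed between alternate rows of the plate, and the miRNAs lie in different sets. In alternate rows from A to O, which hold miR-532-5p, 74 assays measured on both plates had a median of 5.01-fold. In those from B to P, which hold miR-501-3p, 26 had a median of 1.80-fold. This difference of -1.47 in median log2 ratio is opposite in sign to that of the pair. The sets hold different assays, and whether the difference comes from the rows or from the assays was not tested. Against the median of its own rows, miR-532-5p was 34.4-fold lower and had the lowest of the 74 ratios, while miR-501-3p was 13.7-fold higher and had the second highest of the 26, after miR-423-3p. The difference between the miRNAs was 7.41 on the log2 scale as deposited and 8.88 after each was set against its own rows.

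Of row O, the 10 other assays measured on both plates had ratios of 1.99 (miR-146b) to 26.6 (miR-125a-5p), with a median of 6.22, and all were above 1. miR-144, in the same row, was below 35 with the control probe alone, at 34.37, and had a Ct of 39.00 with an instrument warning on the Stat3 plate. Its ratio was 1.05 with that well set to 35 and 0.0656 from the Ct as exported, which is lower than that of miR-532-5p. miR-24, at Ct values of 27.60 and 25.88, had the nearest control Ct in the row and a ratio of 5.36. The well to the left, miR-421, had a ratio of 6.71, and the wells to the right, above and below were past 35 cycles or undetermined on both plates, with no name here. In row D, 4 other assays were measured on both plates. miR-423-3p was at 49.5-fold with Ct values of 32.20 and 27.27, miR-322 at 3.06, the rat-named miR-223 assay at 1.80 and miR-582-3p at 1.003. Row D thus held a ratio above that of miR-501-3p as well as 3 far below it. The well above miR-501-3p, miR-219-5p, had a control Ct of 33.42 and no Ct with the Stat3 probe, and the wells to the left and below were past 35 cycles or undetermined on both plates.

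**Figure D3:**
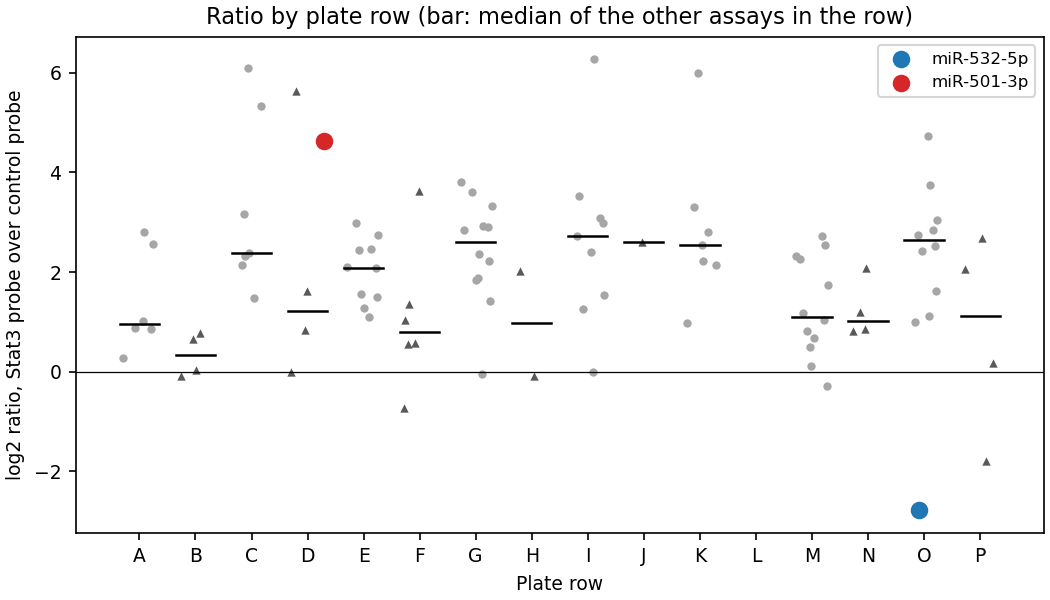
log2 ratio of Stat3 probe over control probe (y axis) by plate row (x axis) for the 100 miRNA assays measured on both plates, 1 point each, with a bar at the median of the other assays in the row. miR-532-5p lies at -2.78 in row O, whose other assays are all above 0, and miR-501-3p at 4.63 in row D, below 1 other assay of that row.

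The plate carried 6 assays named for this cluster, and the others gave little signal. miR-362-3p, the nearest neighbour of miR-501-3p in the genome with an assay and also in row D, was undetermined with the control probe and had a Ct of 34.99 with the Stat3 probe, at the limit. Its deposited ratio of 1.638 in the authors' deposited table is close to the 1.625 that the offset alone gives. The authors' deposited table lists 1.625 for miR-362-5p, miR-188-5p and miR-500, which were therefore at or above 35 cycles on both plates and have no well here. Of the 6, then, miR-501-3p alone was higher by 2-fold or more and miR-532-5p alone lower by as much, 1 was measured with the Stat3 probe alone, as a bound, and 3 in neither pull-down. Of all miRNA assays 63.0% were measured in neither, so the lack of signal is not particular to this cluster. Of the 100 measured on both plates, 73.0% were higher by 2-fold or more and 2.00% lower by as much. miR-188-5p comes from the hairpin nearest to Mir532 and was not measured, while miR-532-5p had the lowest control Ct of all miRNA assays. The assay for miR-500 names no arm, so whether it reads miR-500-3p, which has the seed of miR-501-3p, is not known here. The plate names no assay for miR-501-5p or miR-532-3p, so the other arm of neither precursor can be compared.

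The signs of both ratios were the same on the scales tried. Set against the mean of 4 reference miRNAs (miR-16, miR-423-3p, miR-191, miR-103), the log2 ratio of miR-532-5p was -5.35 and that of miR-501-3p 2.06. miR-423-3p shares row D with miR-501-3p and has its high ratio, and without it, an alternative added after the values were seen, these were -4.33 and 3.08. Against U6, a small nuclear RNA, they were -4.90 and 2.51, and against the UniSp3 wells -2.59 and 4.81. A scale common to all wells shifts both miRNAs by the same amount and leaves their difference at 7.41.

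**Figure D4:**
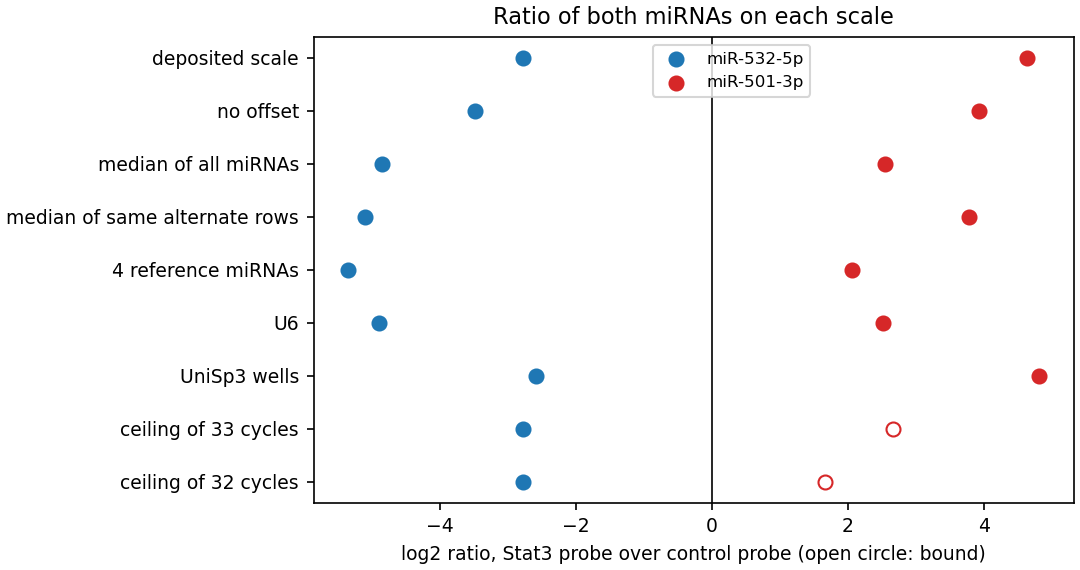
log2 ratio of Stat3 probe over control probe (x axis) of miR-532-5p and miR-501-3p on the deposited scale, on 6 other scales and under 2 other limits on Ct (y axis), with open circles for bounds. miR-532-5p lies between -5.35 and -2.59 and miR-501-3p between 1.66 and 4.81.

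Assays for one miRNA name in mouse and rat, compared after their values were seen, give another view of how far single assays differ. For 3 pairs the names are identical and both assays were measured on both plates. Those of miR-146b differed by 0.21 in log2 ratio, those of miR-223 by 0.34 and those of miR-200c by 0.88. The last had control Ct values of 33.71 and 34.33, and those of miR-146b were 32.10 and 28.29. The rat-named miR-338 assay, which states no arm, and the mouse miR-338-3p assay were further apart, with log2 ratios of 2.60 and 0.68. Their control Ct values were 34.69 and 34.50, and whether they read the same miRNA is not known here. In each pair the assays lie in different sets of alternate rows and may differ in sequence. Of 6 macrophage miRNAs, 5 (miR-223, miR-142-3p, miR-21, miR-155 and miR-146a) were measured on both plates and miR-142-5p on neither. Of 15 assays for other tissues 8 were measured on neither, among them all 6 for muscle. The 4 measured on both were miR-451 (erythroid), miR-126-3p (endothelial), miR-9 (neural) and miR-200c (epithelial). Another 3, miR-122, miR-124 and miR-200a, were measured on the control plate alone. The lists count mouse-named assays only. Among rat-named assays, those of miR-200c and miR-223 were measured on both plates and that of miR-200b on the control plate alone, at 33.94. miR-451, at 30.47 and 31.17, had lower Ct values than miR-223, at 32.09 and 32.29. These lists therefore do not settle the cell type. Of all miRNA assays, 63.0% were measured on neither.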

How the data were processed

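Ct values were deposited by the authors as SDS 2.3 exports of 384 wells per plate with a manual threshold of 0.15, per the file headers, with no normalization, although the labels call each sample's value a relative level. The authors' deposited table gives ratios under a header that calls them log fold changes. With both sets sorted, the 384 deposited ratios and 2 raised to (control Ct minus Stat3 Ct, plus 0.7) differed by at most 0.0005 when undetermined wells and Ct above 35 were set to 35. The offset and the limit are stated in no header or label. Names were tied to wells within 0.0006 of a ratio, and 142 of 146 rows away from 1.625 matched 1 well. The matching was tried on simulated data made with the same offset and limit, so that trial cannot tell whether these are the authors' own. Ratios, ranks, medians and nearest assays (4 by each Ct, 4 by Euclidean distance over both) were computed with pandas 2.3.3. Named assays were the 2 miRNAs, their cluster, nearest assays, plate row and adjacent wells, control wells, and assays with more extreme ratios. Bands of Ct around the miRNAs and mouse and rat assay pairs were added after their values were seen. With 1 pull-down per probe no test was made. The miRNAs and lists were chosen with earlier results of these data known.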

Additional observations from a re-analysis of the deposited data

How the results depend on the processing

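A value is said to have moved where it changed by more than the calibrator SD of 0.97 cycles. No sign reversed. On the log2 scale miR-532-5p moved from -2.78 to -4.86 against the median of all miRNAs, -5.11 against its own alternate rows, -5.35 against the 4 references, -4.33 against them without miR-423-3p (added after the data were seen) and -4.90 against U6. miR-501-3p moved from 4.63 to 2.55, 2.06, 3.08 and 2.51 against all miRNAs, both sets of references and U6, and to bounds of 2.66 and 1.66 at limits of 33 and 32 cycles. Their difference moved from 7.41 to 8.88 against own rows, and to bounds of 5.44 and 4.44 at those limits. These shifts follow from the subtraction or the limit itself. Ranks by Ct and by ratio stayed within 1.5 times of the values given, without wells that carry a warning and at 33 cycles, where miR-501-3p has no control Ct and no rank by ratio. No paired analysis was possible because each probe has 1 pull-down, and no replicate could be left out. Depth here is the Ct: no repeat near 35 cycles limits miR-501-3p.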
